A study of Mus musculus with 2 samples.

Results

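The aryl hydrocarbon receptor gene Ahr was followed in mouse embryonic ureters together with its partner Arnt, its repressor Ahrr and 4 classical target genes, Cyp1a1, Cyp1b1, Tiparp and Nqo1. The 7 genes were found by the gene name that the scanner files give to each probe, which gave 11 of the 39429 probes on the array. The array holds 31870 gene names, counted by RefSeq symbol where 1 matched and by the file's name otherwise. Ahr was chosen by its measured ratio of Gata2cKO over control, which was high on these same arrays, so its values are given as a description with no test. The other 6 genes were added for their known place in the pathway, to see whether they moved with the receptor. The study compared ureters dissected at embryonic stage E14.5 from NMRI mice on 2 dye-swapped 2-colour Agilent arrays. The RNA labelled Gata2cKO came from embryos with 1 Tbx18 allele expressing Cre recombinase and with both alleles of the transcription factor gene Gata2 flanked by loxP sites. Tbx18 is active in the mesenchyme that wraps the ureter, so the recombinase acts in those cells and their descendants, not in the epithelium. The control RNA came from embryos without Cre (Tbx18 +/+) that carried 1 floxed Gata2 allele and a further Gata2 allele of unstated type. The Cre-bearing Tbx18 allele was thus on the Gata2cKO side alone, and its effects cannot be told apart from those of the loss of Gata2. On array 1 both RNAs were female and the Gata2cKO RNA carried the 647 dye. On array 2 both were male and the Gata2cKO RNA carried the 555 dye, so an effect of sex and one of dye cannot be separated. The labels do not say how many embryos stand behind an RNA, and p-values rest on the spread between these 2 arrays only. The limma test draws each gene's spread towards that of all genes tested, so its p-values and intervals do not follow the printed SD alone.

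AHR is a ligand-activated transcription factor of the bHLH-PAS family. It waits in the cytosol with the chaperone HSP90 and the co-chaperone p23, and after binding a ligand such as a dioxin, a polycyclic hydrocarbon or a tryptophan metabolite it enters the nucleus, pairs with ARNT and binds a short DNA core, GCGTG, upstream of its targets. Those targets include the cytochrome P450 genes Cyp1a1 and Cyp1b1 and 2 genes that shut the pathway off again, Ahrr and Tiparp. In mouse embryos, dioxin acting through AHR is known to cause overgrowth of the ureteric epithelium and hydronephrosis.

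The core is shown first because it is the sequence through which a change of receptor activity would reach the targets. Promoters of 6 of the 7 genes (all but Ahr) were matched by symbol in a RefSeq table of build GRCm38.p6, which gives 250 bases before and 50 after a start site. GCGTG was searched on both strands. It was present in 5 of these promoters and not in that of Nqo1, and 32.4% of the 32851 promoters in the table hold it. Each stretch below has 25 bases, is read 5′ to 3′ along the gene, and has the core in capitals (CACGC where the core lies on the opposite strand).
Arnt, chr3:95434351-95434375, + strand: atagtttgggGCGTGtcttctgccc
Ahrr, chr13:74292424-74292448, - strand: ttgaaagggcGCGTGgcaggcaggg
Ahrr, chr13:74292399-74292423, - strand: acaaggatgtGCGTGcgccctctgc
Ahrr, chr13:74292344-74292368, - strand: ggggcggctcGCGTGctggggtggg
Cyp1a1, chr9:57697549-57697573, + strand: agataaggagGCGTGgccaacagac
Cyp1b1, chr17:79715123-79715147, - strand: tcccgcccctCACGCcccaccccct
Tiparp, chr3:65528267-65528291, + strand: ccgtccggagCACGCgcacgggagg
Ahrr stood out by holding 3 cores, a number reached by 3.91% of all promoters in the table. It was also the one gene of the 6 with the longer form TNGCGTG, which contains the core and which 5.07% of promoters hold. The core of Cyp1a1 lay 52 bases before the start site (-52), that of Cyp1b1 at -74 and that of Tiparp at -168. These matches are letters in a window and not measured binding sites, and sites outside the window were not searched.

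**Figure D1:**
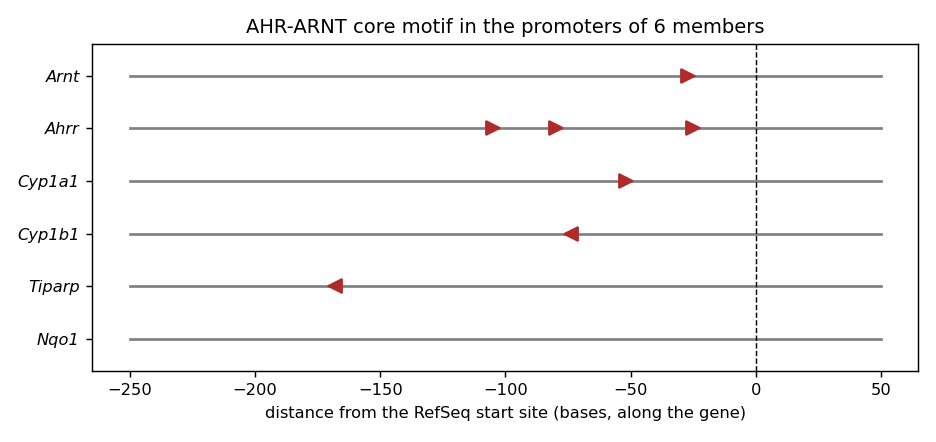
Position of the GCGTG core in the promoters of 6 genes, on an axis of bases from the RefSeq start site (dashed line, 0), from 250 before to 50 after it. Triangles pointing right are cores on the strand of the gene and those pointing left are on the opposite strand. Ahrr has 3 cores (-105, -80 and -25), Arnt has 1 at -27, Cyp1a1, Cyp1b1 and Tiparp have 1 each, and Nqo1 has 0.

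Ahr itself was higher in the RNA labelled Gata2cKO on both arrays and with both of its probes. The brighter probe lies at chr12:36182724-36182783 (mm9, minus strand) and the other at chr12:36188523-36188582, upstream of it along the gene. Exons were not assigned here. The first 30 of their 60 bases show that the probes are different sequences. Whether both lie in the mature transcript was not checked.
Ahr brighter probe, first 30 bases: ccttgctgtcctttaaactgttacttgctt
Ahr other probe, first 30 bases: ttagattttgtcagttgtttacaagttcct
On the brighter probe the spot signal before any normalization was 12630 in the control and 41181 in the Gata2cKO RNA of array 1, and 24262 in the control and 26756 in the Gata2cKO RNA of array 2. The 647 channel had the higher median signal on both arrays (753.6 against 433.1, and 754 against 428.1). Within each dye the Gata2cKO RNA gave more signal than the control RNA on the other array. After normalization the log2 level of this probe was 14.06 and 14.11 in the control RNAs of arrays 1 and 2, and 14.86 and 15.22 in the Gata2cKO RNAs. The control RNAs differed little from each other, and both Gata2cKO RNAs lay above both of them. That order belongs to what Ahr was chosen for, and the share of all genes with it was not counted. The log2 ratios of Gata2cKO over control were 0.81 on array 1 and 1.11 on array 2, which are folds of 1.75 and 2.15 and a mean of 1.94-fold (log2 ratio 0.96 ± 0.214, SD, n = 2).

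The other Ahr probe was much dimmer. Its log2 level was 8.39 and 8.46 in the control RNAs and 8.95 and 9.08 in the Gata2cKO RNAs. Its log2 ratios were 0.56 and 0.62, a mean of 1.5-fold (0.59 ± 0.0462, SD, n = 2). In the authors' deposited table, taken as log2 of its signed fold, the brighter probe stood at 1.53 and 1.31 and the other at 1.19 and 1.30 for arrays 1 and 2. All of these values belong to what Ahr was chosen for, and the direction of the deposited table was itself taken from the scanner ratios. The mean log2 ratio ran from 0.59 (other probe, scanner files) to 1.42 (brighter probe, deposited table). By mean ratio Ahr ranked 29th from the top among 20506 genes tested, which is the property it was picked for. The brighter probe lies in the brightest 25% of genes (5127). In that group 236 genes were at least 1.5-fold on both arrays with opposite signs, and 4 with the same sign. Ahr is among these 4 by the way it was chosen, so nothing about Ahr is read from the counts. Opposite signs can come with the dye or with the sex of the embryos, which cannot be separated here. Over all genes, 0.273% were at least 1.5-fold higher on both arrays, a share given beside the ratios of Ahr from which nothing is read.

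**Figure D2:**
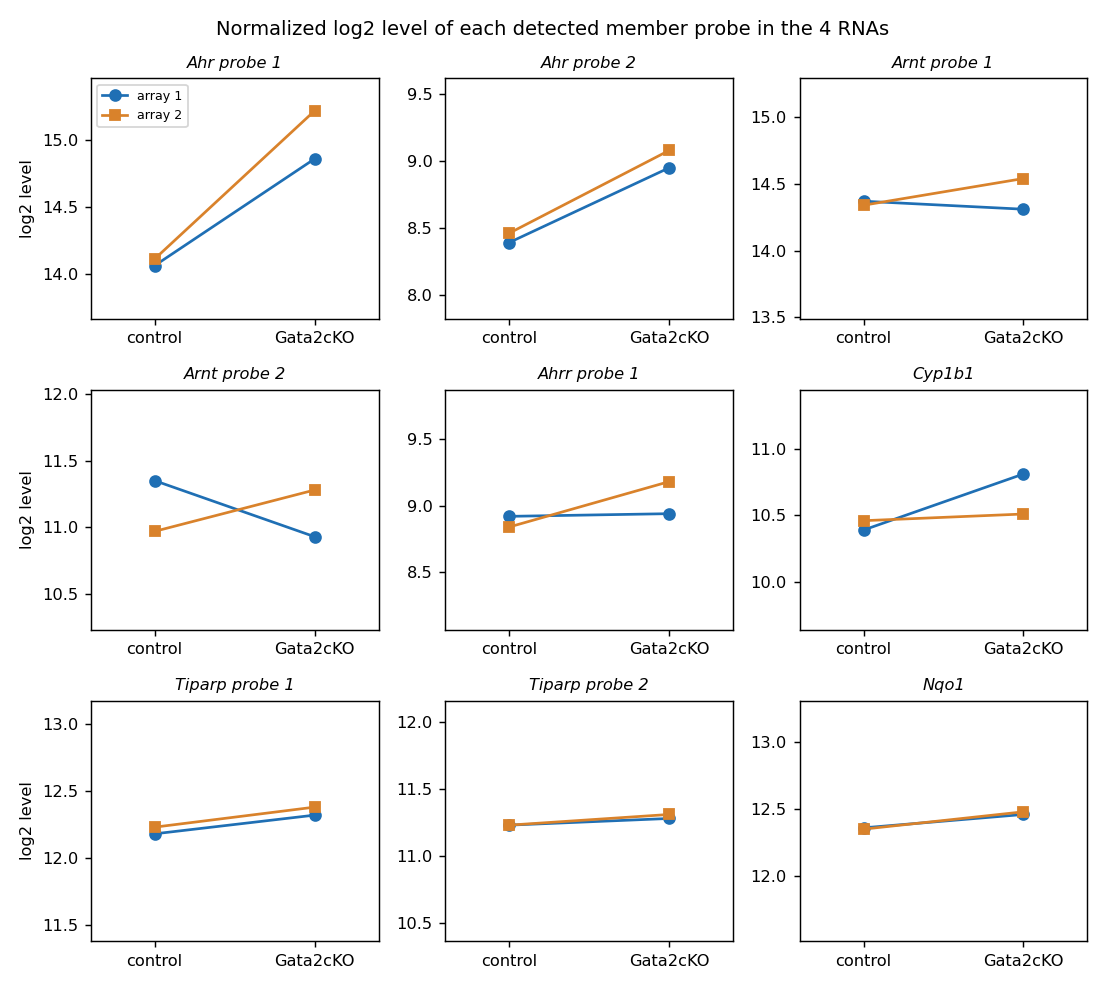
Normalized log2 level (vertical axis, each panel spanning the same 1.8 log2 units around its own mean) of the 9 member probes that were well above background, in the control and the Gata2cKO RNA. Lines join the RNAs of 1 array, circles are array 1 and squares array 2. Both Ahr probes climb on both arrays, the lines of Arnt probe 2 cross, and those of Tiparp and Nqo1 are nearly flat.

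Arnt, the partner with which AHR binds DNA and which also serves the hypoxia-inducible factors, did not pass the test. Its brighter probe (chr3:95301081-95301140, mm9) had log2 levels of 14.37 and 14.34 in the control RNAs and 14.31 and 14.54 in the Gata2cKO RNAs, so the groups overlapped. Its log2 ratios were -0.06 and 0.20, with a mean of 0.07 ± 0.187 (SD, n = 2; limma adjusted p = 0.963) and a 95% interval of the mean from -0.222 to 0.366. The other Arnt probe (chr3:95299434-95299493) had opposite signs on the arrays, with log2 ratios of -0.42 and 0.31. Here the arrays differed from each other more than the RNAs did on average.

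Ahrr, which competes with AHR for ARNT and is itself induced by AHR, had 1 probe well above background in all 4 RNAs (chr13:74348566-74348612, mm9). Its log2 levels were 8.92 and 8.84 in the control RNAs and 8.94 and 9.18 in the Gata2cKO RNAs. The Gata2cKO RNAs were higher, by almost nothing on array 1 (log2 ratio 0.02) and by 0.35 on array 2. The mean was 0.18 ± 0.228 (SD, n = 2; limma adjusted p = 0.833), with a 95% interval from -0.125 to 0.493. The authors' deposited table gave higher values for this probe, 0.53 and 0.94. The other Ahrr probe (chr13:74350685-74350744) was well above background in 0 of the 4 RNAs.

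Cyp1a1, which encodes the monooxygenase most strongly induced by AHR ligands, was not well above background in either group. Its only probe (chr9:57551535-57551594, mm9) had spot signals of 48.4 in the control and 81.6 in the Gata2cKO RNA of array 1, and of 79.9 in the control and 58.1 in the Gata2cKO RNA of array 2. Negative control spots had median signals of 46.1 and 52.3 in the 555 channels and of 83.6 and 89.9 in the 647 channels. The Cyp1a1 spots thus lay near the level of spots with no target in every RNA, and no fold is given. A level below the reach of this array cannot be compared.

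Cyp1b1, a cytochrome P450 that also metabolises steroids and retinoids, was detected in all 4 RNAs (chr17:80106547-80106606, mm9). Its log2 levels were 10.39 and 10.46 in the control RNAs and 10.81 and 10.51 in the Gata2cKO RNAs. The Gata2cKO RNAs lay above the control RNAs, by 0.42 on array 1 and by only 0.05 on array 2. The mean log2 ratio was 0.23 ± 0.265 (SD, n = 2; limma adjusted p = 0.791), with a 95% interval from -0.091 to 0.559, or folds of 0.939 to 1.47. In the authors' deposited table the columns went opposite ways, 0.71 and -0.55.

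Tiparp encodes a mono-ADP-ribosyltransferase that is induced by AHR and marks it for breakdown. Its brighter probe (chr3:65358749-65358808, mm9) gave log2 levels of 12.18 and 12.23 in the control RNAs and 12.32 and 12.38 in the Gata2cKO RNAs. The ratios of the arrays were almost identical, 0.146 and 0.148, and small (mean 1.11-fold, log2 ratio 0.15 ± 0.00173, SD, n = 2; limma adjusted p = 0.841). The 95% interval ran from -0.113 to 0.407 on the log2 scale. The other Tiparp probe (chr3:65357710-65357769) had ratios of 0.05 and 0.08.

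Nqo1, a quinone reductase that answers both to AHR and to the oxidative stress factor NRF2, was similar. Its probe (chr8:109912440-109912499, mm9) had log2 levels of 12.36 and 12.35 in the control RNAs and 12.46 and 12.48 in the Gata2cKO RNAs. The log2 ratios were 0.11 and 0.13, a mean of 1.08-fold (0.12 ± 0.0168, SD, n = 2; limma adjusted p = 0.898), with a 95% interval from -0.143 to 0.377. In the authors' deposited table the brighter Tiparp probe (mean -0.03) and Nqo1 (mean -0.09) had the opposite sign. For that Tiparp probe the columns went opposite ways (0.09 and -0.15), and the other Tiparp probe had a mean of 0.03.

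**Figure D3:**
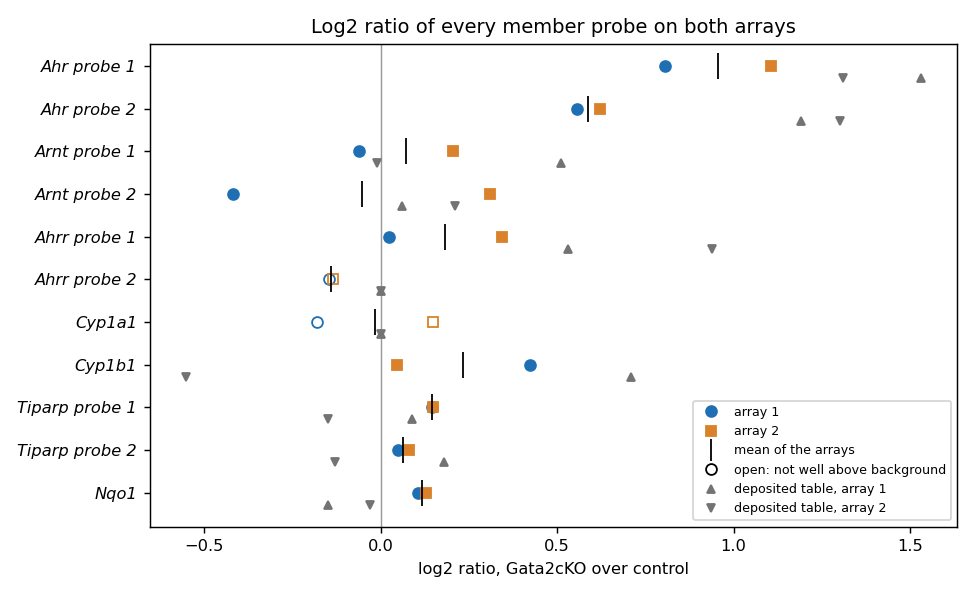
Log2 ratio of Gata2cKO over control (horizontal axis) for all 11 probes of the 7 genes. Circles are array 1, squares array 2, black bars their mean, open symbols probes not well above background, and grey triangles the authors' deposited table. In circles and squares, both Ahr probes lie at 0.56 or above, and every filled one of the other genes lies between -0.42 and 0.42. Grey triangles go beyond that range for Ahrr (0.53 and 0.94), Cyp1b1 (0.71 and -0.55) and the brighter Arnt probe (0.51 on array 1).

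Set side by side, the receptor and its targets differed in size. The highest mean among the 5 other genes tested was 1.18-fold (Cyp1b1) against 1.94-fold for Ahr, whose value was the ground for choosing it, so this gap was not tested. The order among the 5 was not fixed: the log2 ratio of Ahrr was above that of Cyp1b1 in the authors' deposited table (0.73 against 0.08) and on array 2 alone (0.35 against 0.05). Of these 5 genes, 0 passed an adjusted p of 0.05 by limma and 0 reached an unadjusted p under 0.05, against 0.0878% of all genes tested (18 of 20506) and 7.17% (1470). The ratio was above 0 on both arrays for 4 of the 5, namely Ahrr, Cyp1b1, Tiparp and Nqo1. This held for 27% of all genes. The upper ends of the 95% intervals lay at folds of 1.29 for Arnt, 1.41 for Ahrr, 1.47 for Cyp1b1, 1.33 for Tiparp and 1.30 for Nqo1, and the lower ends all lay below 1, from 0.857 to 0.939.

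The tested genes with the pair of ratios nearest to that of Ahr, by Euclidean distance over the 2 arrays, were Megf10, an engulfment receptor gene (0.79 and 1.09), Thoc2, of the mRNA export complex (0.77 and 1.14), the potassium channel gene Kcnd3 (0.87 and 1.15), Npr3, the clearance receptor of natriuretic peptides (0.84 and 0.98), and Cd83, a surface marker of mature dendritic cells (0.92 and 1.21). Their distances were 0.0236 to 0.149 log2 units. With 2 arrays a like pair of ratios describes size alone.

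**Figure D4:**
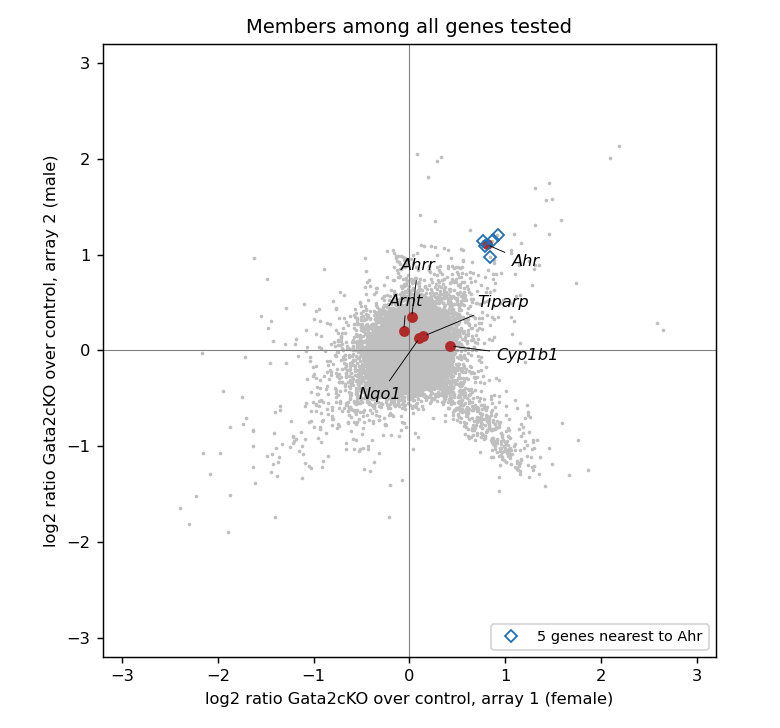
Log2 ratio of Gata2cKO over control on array 1 (horizontal) against array 2 (vertical) for the 20506 genes tested (grey), with the 6 member genes tested in red and the 5 genes nearest to Ahr as open diamonds. Ahr lies at 0.81 and 1.11, apart from the dense centre in which the other 5 members sit. The tail at the lower right holds genes higher on array 1 and lower on array 2.

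The other genes of the pathway were read from 4 lists. Of the chaperones, coactivators and other proteins that bind AHR, 13 of 14 were tested. The ratio was above 0 on both arrays for 8 of the 13, against 27% of all genes. It was below 0 on both for 1, Relb, against 5370 of all 20506 genes. The median log2 ratio was 0.176 against 0.00284 over all genes. In this list 0 passed the test by limma (the lowest adjusted p was 0.665) and 2 had an unadjusted p under 0.05, as had 7.17% of all genes. The genes for the HSP90 chaperone Hsp90aa1 and its p23 co-chaperone Ptges3 had mean log2 ratios of 0.30 and 0.23. The other HSP90 gene of the list, Hsp90ab1, had opposite signs on arrays 1 and 2 (0.566 and -0.161). The coactivator gene Ncoa3 was at 0.30, and Relb, an NF-kB subunit that can pair with AHR, at -0.25.

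The list of further AHR targets, NRF2 targets and enzymes of tryptophan breakdown was in part undetected. Of 25 genes on the array 11 did not pass the filter on dim probes. Among them were Cyp1a2, Ugt1a6a, Serpinb2, Ido1, Ido2, Tdo2 and Kynu, which were well above background in 0 channels. The arrays had the same sign for 6 of the 14 tested (4 up, Gsta2 among them, and 2 down). They had it for 10905 of all 20506 genes (5535 up, 5370 down). The list median was 0.00793. By limma 0 passed. Hmox1 had an unadjusted p under 0.05, as had 7.17% of all genes. Gsta2 is left out of this statement for the reason given below. Gsta2, a glutathione S-transferase gene that both AHR and NRF2 can induce, had the largest ratio of the list. Its log2 levels were 7.26 and 7.37 in the control RNAs and 8.07 and 8.02 in the Gata2cKO RNAs. The mean log2 ratio was 0.73 ± 0.109 (SD, n = 2). The probe was well above background in 3 of the 4 RNAs and met the filter only through the Gata2cKO RNAs, where it was brighter, so its ratio is given as a description and no p-value is read from it. Gsta1, a close relative whose transcripts this probe may also catch, had ratios of -0.15 and -0.10 on a probe that did not pass the filter. The haem oxygenase gene Hmox1 was at -0.28, the NRF2 inhibitor gene Keap1 at -0.23 and Nfe2l2, which encodes NRF2, at 0.15.

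ARNT also pairs with the hypoxia-inducible factors, so these and their targets were read as well. All 20 genes of that list were tested, with a median of 0.0696 and means between -0.24 and 0.21. The ratio was above 0 on both arrays for 10 of the 20 and below 0 on both for 4. Over all 20506 genes these counts were 5535 (27%) and 5370. By limma 0 passed (lowest adjusted p = 0.795), and 0 had an unadjusted p under 0.05. Epas1, which encodes HIF-2 alpha, was at -0.24, the hydroxylase gene Hif1an at -0.21, and the prolyl hydroxylase genes Egln3 and Egln2 at 0.17 and -0.14. In the wider bHLH-PAS family, 10 of 13 genes were tested. On both arrays 3 had a ratio above 0 and 1 a ratio below 0, beside 5535 and 5370 of all 20506 genes. The median was 0.0456. By limma 0 passed (lowest adjusted p = 0.733), and 0 had an unadjusted p under 0.05. Npas4 was at -0.31, Npas3 at 0.20, and the clock genes Per3 and Arntl at 0.18 and 0.06.

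**Figure D5:**
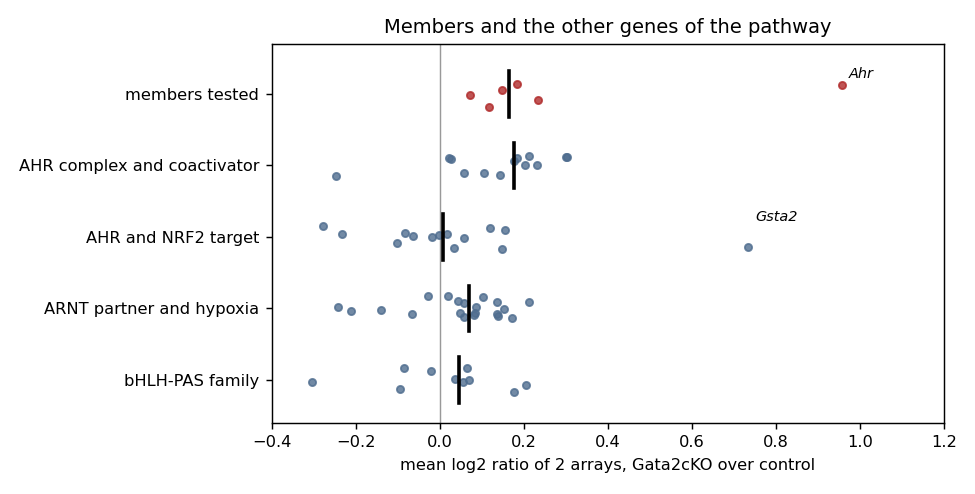
Mean log2 ratio of Gata2cKO over control (horizontal axis) for each gene tested among the members (red) and in the 4 lists (blue), 1 point per gene and the median as a black bar. Ahr (0.96) and Gsta2 (0.73) lie apart, and the other points lie between -0.31 and 0.30.

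Some facts of the whole data set bear on these values. Gata2, the targeted gene, had log2 ratios of 0.33 and 0.54 and so was no lower on the Gata2cKO side, on a probe that may lie outside the deleted part, so it does not check the labels and each direction rests on the dyes they give. In each channel 66% to 69.4% of the spots passed the scanner software's background criterion. Marker genes of urothelium (10 of 10 tested, medians 0.315 and 0.0617 on arrays 1 and 2) and of the ureteric mesenchyme (7 of 7, 0.191 and 0.147) were all detected. On both arrays 7 of the 10 urothelial genes were higher and 0 lower. Of the 7 mesenchymal genes 4 were higher and 2 lower on both, so their median covers shifts both ways. Of all genes, 27% were higher on both. Smooth muscle markers were lower on both arrays for 6 of 6 genes (medians -0.788 and -1.12), markers of neurons and chromaffin cells for 9 of 9 (-1.45 and -1.27) and macrophage markers for 6 of 7 (-0.379 and -0.461). Of all 20506 genes, 5370 were lower on both arrays. Endothelial markers had medians of -0.159 and -0.0786 over 8 genes. Liver markers were measured for 4 of 5 genes (medians 0.532 and -0.0957) and kidney progenitor markers for 5 of 5 (0.0344 and -0.0671). Those kidney medians cover shifts both ways, with 2 genes higher and 2 lower on both arrays. Six2 was at 0.226 and 1.086, Ret at -0.964 and -0.454, and Wnt11 at -0.57 and -0.64. In whole ureters, a change in the number of cells of a type and a change in RNA per cell cannot be told apart, and the part of these shifts in the ratio of Ahr was not tested.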

How the data were processed

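The RNA of 2 control and 2 Gata2cKO samples was measured on 2 arrays. Per the file headers, the authors read the scans with Agilent Feature Extraction 10.7.3.1 with probes placed on mm9. These deposited files hold spot and background intensity on a linear scale, processed signals that the software had background-subtracted and dye-normalized, and the log10 of the red to green ratio. The authors' deposited table holds a signed fold score per probe (scale and centring not given in the sources used here). Its direction was taken from its correlations with the scanner ratios (0.443 and 0.376), so it served as an alternative alone.

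The normexp method (offset 50) removed background, and ratios were normalized by loess (span 0.3) and turned to Gata2cKO over control. Control spots were left out, as were outlier spots (255 and 178). No spot was saturated (0). Levels per RNA are log2 values after Aquantile scaling. Probes well above background on both arrays in 1 of the RNAs were kept (25657), and a gene took its brightest probe. Ratios of 20506 genes were tested against 0 by a two-sided test in limma 3.58.1 (R 4.3.3), and p-values were adjusted by Benjamini-Hochberg across all of them. The fit had 1 residual degree of freedom and a prior of 4.68. The functions were tested on simulated arrays. Probe accessions were named by RefSeq for 26412 probes, and the other 13017 kept the file's name. The number of arrays limits the precision.

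Members, lists, tests and the rule for named genes were chosen with earlier results of these data known. Named were the members, the 4 largest ratios of the same sign on both arrays in each list, and the 5 genes nearest to Ahr. Other list genes in the text were named after their values were seen. The value of 1 list gene is not reported.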

Additional observations from a re-analysis of the deposited data

How the results depend on the processing

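The log2 ratio of Ahr was positive under all 9 alternatives run, from 0.77 to 1.42, the latter in the authors' deposited table, and 0.81 and 1.11 with 1 array left out. Of the 5 other members tested, 0 passed the threshold under any of the 7 alternatives with a test. Cyp1a1 was not tested. The brighter Tiparp probe (-0.03) and Nqo1 (-0.09) turned sign in the authors' deposited table, while the other Tiparp probe did not (0.03). The cause was not tested. With 1 array left out the ratios ran from -0.06 to 0.20 for Arnt, 0.02 to 0.35 for Ahrr and 0.05 to 0.42 for Cyp1b1, and stayed at 0.15 for Tiparp and between 0.11 and 0.13 for Nqo1. The number of genes past the threshold by limma was 18, and 0 with median centring (492 at an unadjusted p under 0.05) and 0 in the authors' deposited table (972). It was 129 with the scanner software's processed signals, 41 with a normexp offset of 16, 54 with no filter on dim probes and 376 with a trended and robust variance. Genes at least 1.5-fold on both arrays numbered 146, and 286 with the processed signals, 393 in the deposited table and, on 1 array alone, 701 and 708. In the AHR and NRF2 target list the count past the threshold went from 0 to 1 (Gsta2) with the processed signals and with the trended and robust variance, and since Gsta2 met the filter only through the Gata2cKO RNAs, where it was brighter, nothing is read from that call. The list medians lay between -0.0956 and 0.237 over all alternatives. A fit over 1 array has no residual degrees of freedom and gave values alone. The test of ratios within arrays is itself paired. Beyond it, no paired analysis was possible because a further replicate block would leave no residual degrees of freedom. Cyp1a1 and the dimmer Ahrr probe stayed at background, which limits what can be said of them.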
